A study of Trichoderma cf. simile with 24 samples.

Results

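The 176 genes described here had a time course in common. Their transcripts stood higher in control mycelium on day 1 than on day 3. On day 1 they were also lower where either of a pair of compounds had been added from a dichloromethane stock. The genes came from 12486 numbered gene models of Trichoderma cf. simile WF8, a filamentous fungus grown in shaken flasks. Members were chosen on the difference between groups in log2(mean FPKM of 3 flasks + 1), where FPKM is the fragment count of a gene scaled to gene length and library size. The difference had to be -1.5 or lower for day 1 with 4-phenoxybenzoic acid, for day 1 with 9,10-dibutoxyanthracene and for day 3 of the control, each against day 1 of the control. In addition, day 1 with phenetole had to lie less than 1 above the control of that day, and day 3 with phenetole and with 9,10-dibutoxyanthracene within 1 of the control of that day. Of 438 models low enough in the control on day 3, 296 were also low enough on day 1 with both dichloromethane-borne compounds. Of these, 120 were left out: 29 for the limit on phenetole on day 1, 53 for that on phenetole on day 3 and 79 for that on 9,10-dibutoxyanthracene on day 3, with some failing more than one limit. The chosen values are therefore a description, and libraries from day 3 with 4-phenoxybenzoic acid are the only ones the choice did not use.

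Trichoderma species are soil and wood fungi known for secreting enzymes that break down plant polymers and for antagonism toward other fungi. In a flask of sugar and peptone, a young mycelium grows on the dissolved nutrients and later passes into a slower phase in which nutrients run low, and its transcripts change with that passage. Phenetole, 4-phenoxybenzoic acid and 9,10-dibutoxyanthracene are aryl ethers, that is, aromatic rings carrying an ether oxygen, and served as simple models of bonds in lignite. Dichloromethane is a volatile organic solvent. The deposited tables pair no gene identifier with a name, so no role can be given to any member, and no marker gene could be used to check the labelled mycelium.

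Cultures came from a single strain. Each 250 mL flask held 100 mL of Sabouraud broth, with 40 g/L of maltose as the sugar and 10 g/L of peptone, and had been shaken (29 °C, 180 rpm) over 60 h when the additions were made. Mycelium was taken 1 and 3 days later. The 8 groups of 3 flasks were 4-phenoxybenzoic acid (10 mg/L) on days 1 and 3, 9,10-dibutoxyanthracene (5 mg/L) on days 1 and 3, phenetole (200 mg/L, added undiluted) on days 1 and 3, and a control without any of these compounds on days 1 and 3. From stocks of 0.2 g/L in dichloromethane, the dose of 4-phenoxybenzoic acid comes to 5% of the culture volume and that of 9,10-dibutoxyanthracene to 2.5%. Veratryl alcohol, copper and manganese were added as well, per the labels. The labels do not tell if control flasks got any of these or any solvent, so the solvent and the compound cannot be told apart in any comparison with the control or with phenetole. The 3 compounds differ in dose, and the dichloromethane-borne ones also in solvent volume, so dose, solvent volume and compound cannot be told apart. Values for them are set side by side. Library totals lay between 16767477 and 19842379 counts, and the correlation of log values between flasks of a group lay between 0.933 and 0.985.

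On day 3, members together took 0.412 ± 0.0458% of all counts with 4-phenoxybenzoic acid, 0.319 ± 0.00298% with 9,10-dibutoxyanthracene, 0.459 ± 0.067% with phenetole and 0.406 ± 0.0533% in the control (SD, n = 3 each). On day 1 the shares were 0.376 ± 0.0304% with 9,10-dibutoxyanthracene, 0.522 ± 0.0432% with 4-phenoxybenzoic acid, 1.35 ± 0.0664% with phenetole and 2.22 ± 0.262% in the control. The control of day 1 and, below it, phenetole on day 1 stood apart from the other 6 groups, which lay close together. Because RNA came from whole mycelium, fewer cells that hold a transcript and less of it per cell cannot be told apart.

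Levels were also expressed gene by gene. The median member stood at 11.7% of its control day 1 level with 9,10-dibutoxyanthracene on day 1 (interquartile range 5.81 to 18.7%), at 17.3% with 4-phenoxybenzoic acid on day 1 (9.18 to 23.1%) and at 62.2% with phenetole on day 1 (31.5 to 96.8%). On day 3 it stood at 13.0% with 4-phenoxybenzoic acid, 10.5% with 9,10-dibutoxyanthracene, 15.8% with phenetole and 14.3% in the control. All 176 members had counts in every control flask of day 1. In a single library of day 3, 9 to 14 members were at 0 counts with 4-phenoxybenzoic acid, 12 to 13 with 9,10-dibutoxyanthracene, 8 to 13 with phenetole and 8 to 10 in the control. The other libraries of day 1 had 7 to 11 members at 0 with 9,10-dibutoxyanthracene, 5 to 6 with 4-phenoxybenzoic acid and 3 to 4 with phenetole.

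**Figure D1:**
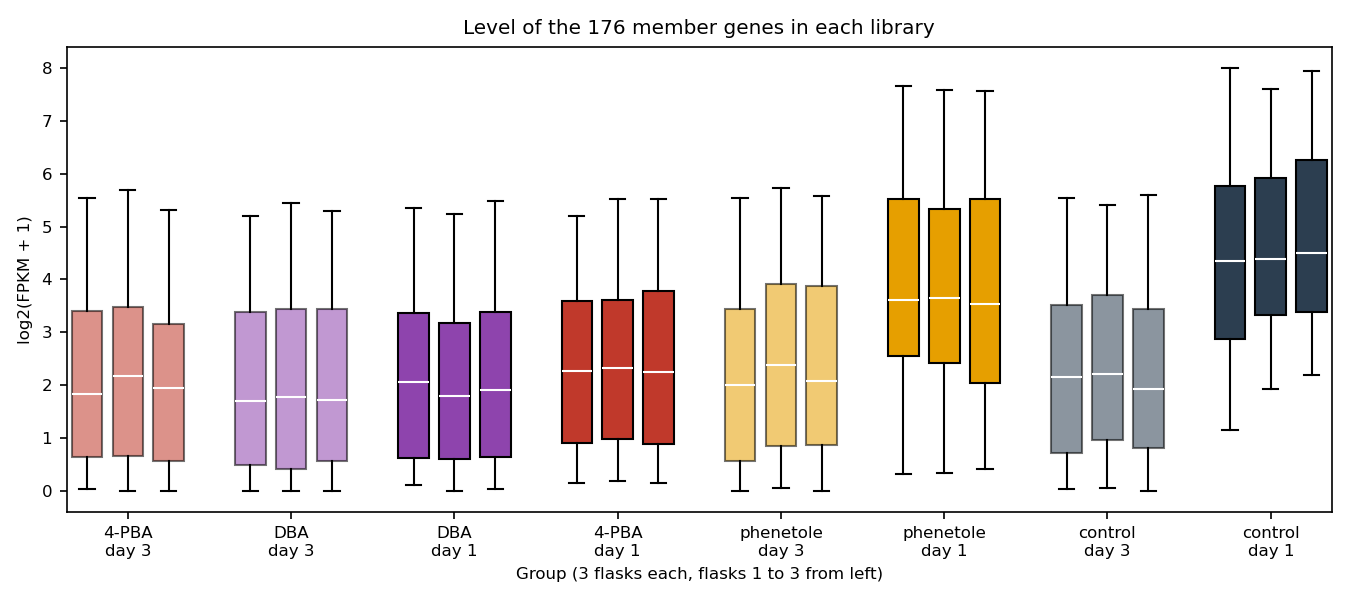
Levels of the 176 members in each of the 24 libraries, as log2(FPKM + 1), by culture type and day (4-PBA is 4-phenoxybenzoic acid and DBA is 9,10-dibutoxyanthracene); boxes span the quartiles, white lines are medians and whiskers leave out the outermost members at each end. Group means of the median lie between 1.74 and 2.28 except with phenetole on day 1 (3.60) and in the control on day 1 (4.41).

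In the control on day 1, mean levels of the members ran between 1.96 and 2599 FPKM, with a median of 23.7 FPKM. At 100 FPKM or more stood 29 members, and 49 were under 10 FPKM. The 3 control flasks of day 1 differed among themselves: the highest flask of a member was a median of 2.23 times its lowest, and over 5 times its lowest for 25 members. No single flask was always the low one, since the lowest value was that of flask 1 for 75 members, of flask 2 for 68 and of flask 3 for 33.

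The most abundant member was Trisim1_006462, a model of 2733 bp. Its day 1 values were 178, 162 and 325 FPKM with 9,10-dibutoxyanthracene, 289, 468 and 393 FPKM with 4-phenoxybenzoic acid, 2252, 3368 and 3479.9 FPKM with phenetole, and 964, 2719.9 and 4114 FPKM in the control. Its day 3 values were 147, 58.1 and 94.6 FPKM with 4-phenoxybenzoic acid, 190.2, 182 and 393 FPKM with 9,10-dibutoxyanthracene, 122, 294 and 269 FPKM with phenetole, and 154, 320.0 and 370.3 FPKM in the control. All 6 flasks with a dichloromethane-borne compound on day 1 were below all 6 flasks of phenetole and control, and the phenetole flasks lay inside the wide range of the control flasks. The lowest 2 of the 24 values, 58.1 and 94.6 FPKM, were both from day 3 with 4-phenoxybenzoic acid.

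Trisim1_000830 (786 bp) was also abundant and varied less between control flasks of day 1. Its day 1 values were 276, 171 and 147 FPKM with 9,10-dibutoxyanthracene, 279, 332 and 365 FPKM with 4-phenoxybenzoic acid, 715, 960.3 and 1332 FPKM with phenetole, and 1153, 736 and 1397 FPKM in the control. On day 3 every one of its 12 values lay between 201 and 379 FPKM. Its 6 phenetole and control flasks of day 1 overlapped, and all lay above the remaining 18 libraries. Of the other members with the 6 highest levels, Trisim1_007184 (840 bp) and Trisim1_008952 (843 bp) were of the same kind, with 442 to 693 and 431 to 610.1 FPKM in the phenetole flasks of day 1, against 594 to 789 and 602 to 710.0 FPKM in the control flasks. Trisim1_004665 (2961 bp) was the least even, with 151, 473 and 573 FPKM in phenetole flasks of day 1 against 28.2, 169 and 699.5 FPKM in control flasks. Its control mean thus rests mostly on one flask.

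The deepest difference between the control days belonged to Trisim1_000178 (1362 bp), with day 3 lower by 5.71 on the log2(mean FPKM + 1) scale. It had 3.37, 5.34 and 2.21 FPKM in control flasks of day 3, against 180.2, 114 and 433 FPKM on day 1. With phenetole on day 1 it had 211, 119 and 202 FPKM, inside the control range, while the 6 flasks of 9,10-dibutoxyanthracene and 4-phenoxybenzoic acid on day 1 held 2.58 to 8.78 FPKM. The model numbered next to it, Trisim1_000177 (2026 bp), was also a member. It had 25.1, 17.0 and 13.0 FPKM with phenetole on day 1 and 39.9, 18.0 and 37.8 FPKM in the control on day 1. Its phenetole flasks thus reached below the control range.

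The other deep members were lower with phenetole. Trisim1_009341 (1638 bp) had 41.5, 49.7 and 23.8 FPKM with phenetole on day 1, against 351, 466 and 302 FPKM in the control of that day, and 11.2, 12.0 and 6.76 FPKM in the control on day 3. Trisim1_009693 (1344 bp) had 0.227, 0.184 and 0.142 FPKM with phenetole on day 1, from 9 counts in all, against 7.96, 29.2 and 47.2 FPKM in the control. The phenetole flasks of that gene were near the control flasks of day 3 (0.0939, 0.143 and 0 FPKM). Trisim1_009555 and Trisim1_006480, also among the 6 deepest, were lower too. They had 3.58 to 8.74 and 36.6 to 45.9 FPKM with phenetole on day 1, against 44.8 to 79.1 and 209.8 to 369.5 FPKM in the control.

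**Figure D2:**
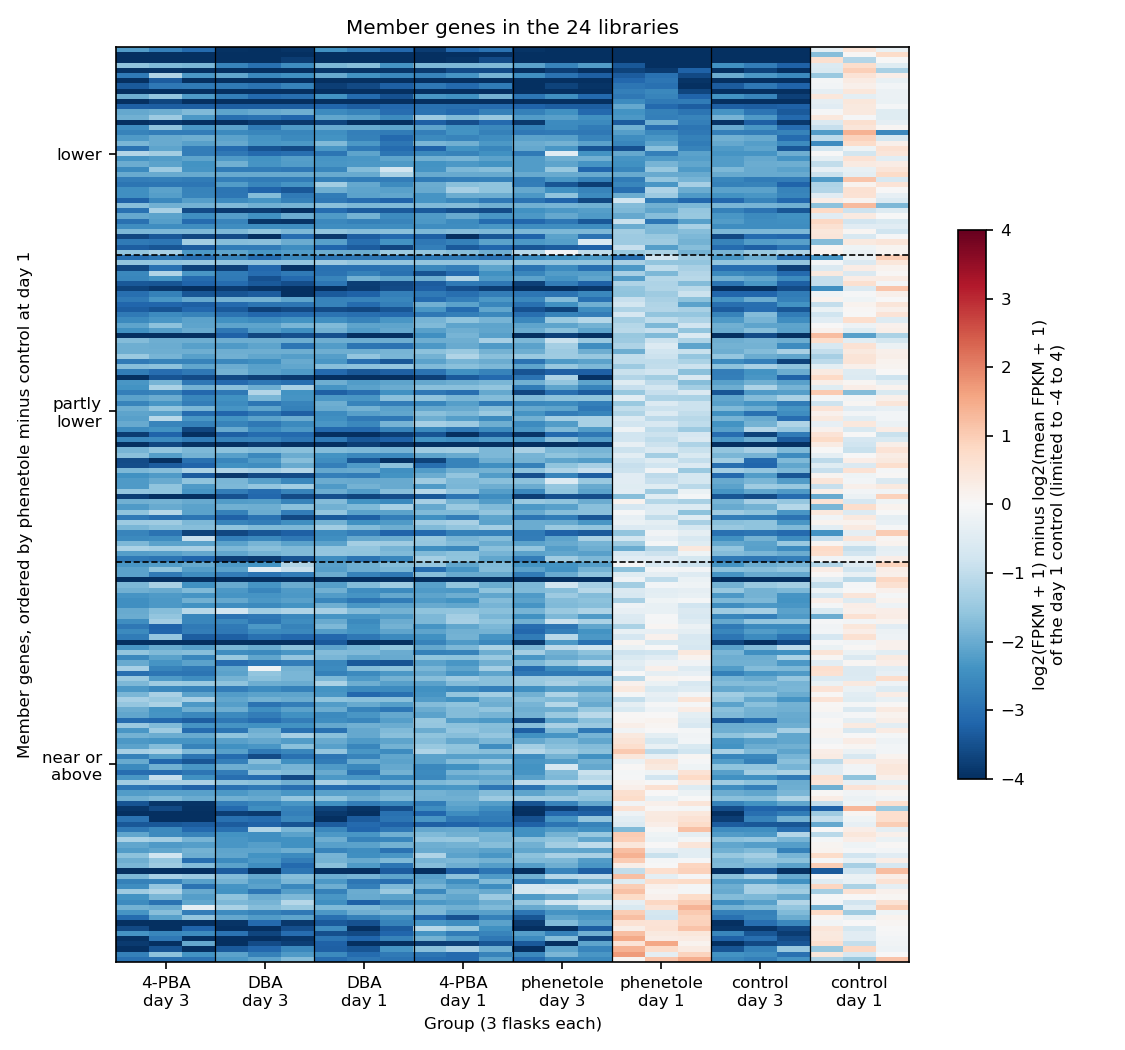
Level of each of the 176 members (rows, ordered by phenetole minus control on day 1, with dashed lines between the 3 phenetole classes) in each of the 24 libraries (columns), as log2(FPKM + 1) minus the day 1 control mean, blue for lower and red for higher. Phenetole on day 1 holds members near their control level beside members as low as on day 3, while the other non-control day 1 libraries are low throughout.

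Phenetole on day 1 split the members, although the choice had set only an upper limit there. On the log2(mean FPKM + 1) scale 40 members (22.7%) were lower than the control by at least 1.5, 59 (33.5%) were lower by between 0.5 and 1.5, and 77 (43.8%) were less than 0.5 lower, level or higher. Scaled to library totals, which lowers phenetole on day 1 by 0.49 (log2) for the median of all genes, the same classes held 56, 75 and 45 members. Differences ran between -6.87 and 0.99, and the classes are ranges along that scale. Over the members the median difference was -0.60, and phenetole flasks were all below the control flasks for 64 members and all above for 2, against 15.2% and 14% of all genes tested. In edgeR, 59 of 175 members tested were called lower and 0 higher, beside 15.2% and 12.3% of all genes, and 86 were lower when scaled to library totals. These counts come from a contrast used in choosing the members, which capped it on the upper side and favoured high values in the day 1 control, so nothing is read from their distance to all genes.

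The 3 phenetole classes were described in other comparisons. In the control, day 3 was lower than day 1 by a class median of 2.60 for the low class, 2.18 for the middle class and 2.06 for the near-control class. The day 1 control also entered the cut of the classes, so nothing is read from this order. By day 3 with phenetole the near-control class was lower than on day 1 by a median of 1.98, the middle class by 1.29 and the low class by 0.23, an order that mirrors how the classes were cut. Median gene length was 1645.5, 1710 and 1549 bp in the low, middle and near-control classes.

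The lowest phenetole value relative to the control was that of Trisim1_011706 (615 bp), at 1.73, 1.21 and 1.24 FPKM with phenetole on day 1, against 213, 394 and 230.4 FPKM in the control. Its numbered neighbour Trisim1_011705 (1215 bp) had 2.44, 1.22 and 1.25 FPKM with phenetole, against 23.3, 56.6 and 24.3 FPKM in the control. Trisim1_001572 (921 bp) had 0.661, 0.896 and 0.414 FPKM against 57.7, 15.9 and 36.5 FPKM. In these 3 genes every phenetole flask was below every control flask.

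At the other end, Trisim1_010193 (1161 bp) had 44.8, 89.7 and 113 FPKM with phenetole on day 1, against 17.5, 14.2 and 91.7 FPKM in the control. Trisim1_003508 (1578 bp) had 269.6, 169.6 and 132 FPKM against 34.9, 183 and 88.0 FPKM. Trisim1_011184 (705 bp) had 177, 40.6 and 101 FPKM against 74.0, 33.1 and 54.3 FPKM. Phenetole and control flasks overlapped in each of these, as they did in Trisim1_007495 (360 bp), whose values were 26.2, 53.6 and 19.8 FPKM against 28.6, 8.67 and 15.8 FPKM.

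Day 3 with 4-phenoxybenzoic acid gave members levels that the choice had left free, although the groups it is set against had been used. On the log2(mean FPKM + 1) scale 164 of 176 members lay within 1 of the control on day 3, a share that 94.5% of all genes also reached. Differences ran between -1.96 and 1.83 with a median of -0.09. The 4-phenoxybenzoic acid flasks were all below the control flasks for 28 members and all above for 10, beside 9.06% and 8.28% of all genes. Fitted with edgeR, 1 of 175 members was called at an adjusted p under 0.05, beside 0.0738% of all genes (0.0369% higher). An unadjusted p under 0.05 was found for 31, and DESeq2 called 8 and limma 1. No share of all genes is given for unadjusted p or for other fits, here or below. Nothing is therefore read from the size of those counts. The members' median fold change in the edgeR fit was -0.14 (log2), against 0.02 for all genes tested. It turned to 0.15 when scaled to library totals, a scaling that moved the median of all genes by 0.32.

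The member called was Trisim1_011706. It had 58.5, 41.3 and 31.3 FPKM with 4-phenoxybenzoic acid on day 3, against 15.5, 12.3 and 6.89 FPKM in the control of that day, with no overlap. The rise was 1.92 ± 0.35 (log2 with SE, edgeR, adjusted p = 0.0395). Without any one of the 3 flasks of 4-phenoxybenzoic acid, or control flask 2 or 3, or with only these 2 groups in the fit, the call was lost, and over 13 alternatives the adjusted p lay between 0.000195 and 0.421. Without control flask 1, 2 members were called.

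Other members beyond a difference of 1 did not pass the test. Trisim1_003508 had 2.01, 8.35 and 2.46 FPKM with 4-phenoxybenzoic acid on day 3, against 8.66, 14.8 and 35.0 FPKM in the control. Trisim1_009341 had 20.0, 36.2 and 8.79 FPKM, against 11.2, 12.0 and 6.76 FPKM, with overlap. Trisim1_011705 had 10.8, 9.56 and 9.05 FPKM, against 5.68, 4.28 and 2.76 FPKM (1.21 ± 0.35, edgeR, adjusted p = 0.185). In all, 9 members were lower by 1 or more and 3 were higher by 1 or more.

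**Figure D3:**
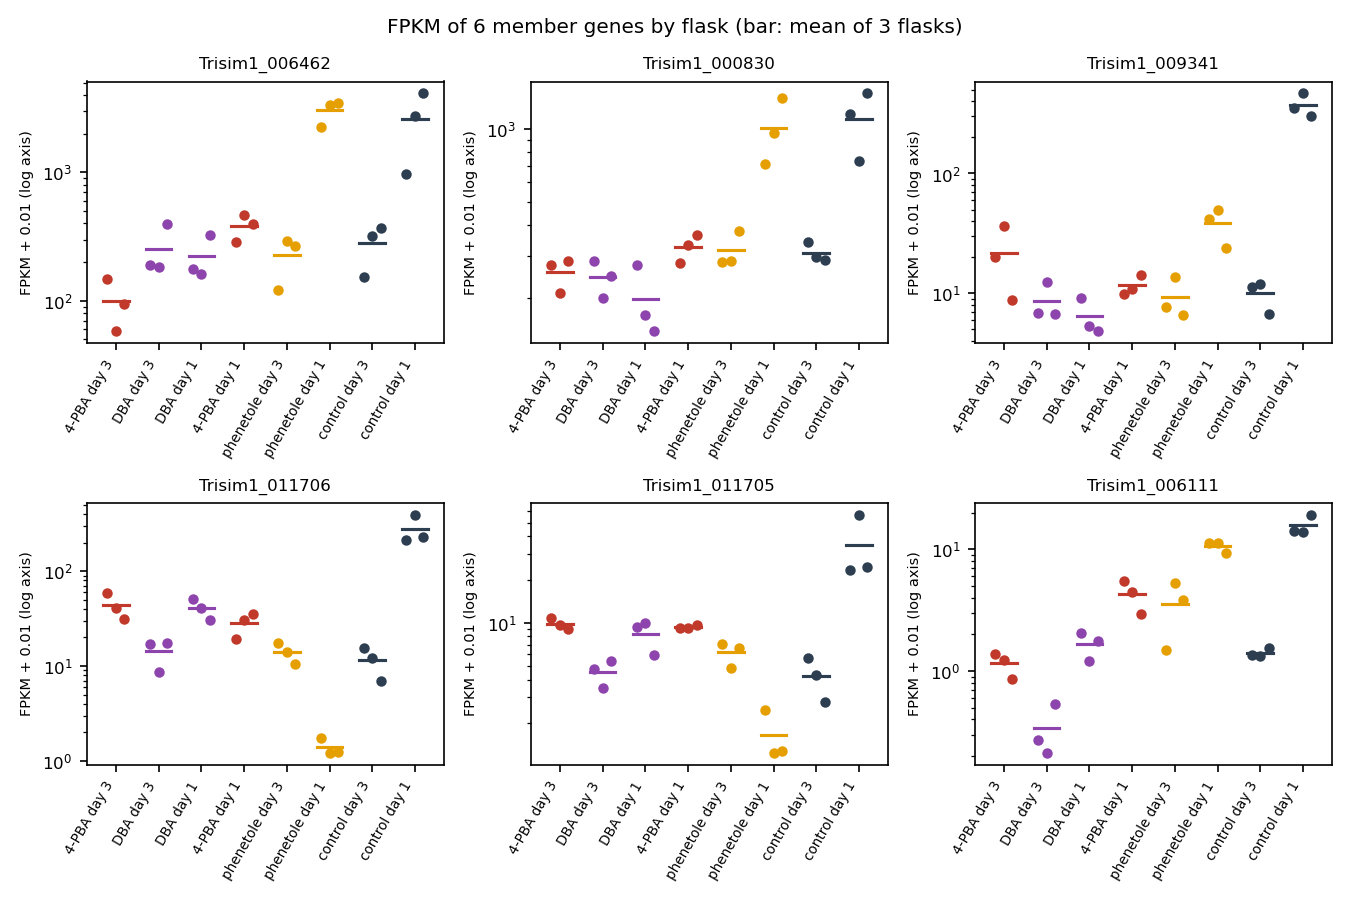
FPKM + 0.01 on a log axis in each flask (points, with a bar at the mean) for Trisim1_006462, Trisim1_000830, Trisim1_009341, Trisim1_011706, Trisim1_011705 and Trisim1_006111, by culture type and day (4-PBA is 4-phenoxybenzoic acid and DBA is 9,10-dibutoxyanthracene). Trisim1_011706 stands at 1.21 to 1.73 FPKM with phenetole on day 1, and its 4-phenoxybenzoic acid flasks of day 3, at 31.3 to 58.5 FPKM, lie above all other day 3 flasks.

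The position of the low day 1 levels was then compared with the control on day 3; both sides of this comparison had been used, each against the day 1 control, in choosing the members, so closeness between them is a description. With 4-phenoxybenzoic acid on day 1, 169 of 176 members lay within 1 of the control on day 3, beside 90.1% of all genes, and the median difference was 0.07. In edgeR 6 members were higher and 0 lower, 3.43% of the members tested beside 5.33% of all genes (1.38% higher, 3.95% lower), and 25 had an unadjusted p under 0.05. This count was 0 without 4-phenoxybenzoic acid flask 1 or flask 2, 3 without its flask 3, 2 without control flask 2 or flask 3, and 9 without control flask 1. With DESeq2 it was 14.

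The largest rise among them was that of Trisim1_009350 (2021 bp), with 18.6, 13.9 and 7.0 FPKM with 4-phenoxybenzoic acid on day 1, against 1.89, 1.91 and 2.50 FPKM in the control on day 3. It was 2.65 ± 0.61 (log2 with SE, edgeR, adjusted p = 0.0152) and was lost without 4-phenoxybenzoic acid flask 1 or 2 or control flask 2 (adjusted p up to 0.0896). Trisim1_009555 (1916 bp) had 1.79, 2.03 and 1.44 FPKM against 0.351, 0.653 and 0.178 FPKM, a rise of 2.11 ± 0.54 (edgeR, adjusted p = 0.0265) that was lost without 4-phenoxybenzoic acid flask 1 or 2 or control flask 1 or 3 (up to 0.113). Both genes were still far below the day 1 control, where they had 25.1 to 58.6 and 44.8 to 79.1 FPKM.

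With 9,10-dibutoxyanthracene on day 1, 169 of 176 members likewise lay within 1 of the control on day 3, beside 92.5% of all genes, with a median difference of -0.13. In edgeR 6 members were lower and 1 higher, 4% of members tested beside 2.23% of all genes (1.6% lower, 0.636% higher), and 24 had an unadjusted p under 0.05. Scaled to library totals, 2 were lower and 1 higher; limma called 4, and a fit of only these 2 groups called 0. Without 9,10-dibutoxyanthracene flask 2 or control flask 2 the count was 0, without 9,10-dibutoxyanthracene flask 3 it was 1 and without control flask 3 it was 3. Trisim1_011706 was the member that rose, with 51.1, 40.6 and 30.8 FPKM against 15.5, 12.3 and 6.89 FPKM (1.79 ± 0.35, edgeR, adjusted p = 0.0114). The call was lost without 9,10-dibutoxyanthracene flask 2 or control flask 2 or 3 and in a fit of only these groups, with an adjusted p of up to 0.0886.

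Among those lower, Trisim1_011295 (1149 bp) had 0.0766, 0 and 0 FPKM with 9,10-dibutoxyanthracene on day 1, which is 2 counts in all, against 1.54, 2.35 and 0.774 FPKM and 111 counts in the control on day 3. It passed in edgeR with an adjusted p of 0.0369, and the call was lost without any one flask of 9,10-dibutoxyanthracene or control flask 2, with limma and in a fit of only these groups (adjusted p up to 0.165). Trisim1_007510 (2654 bp) had 0.133, 0.0841 and 0.0202 FPKM against 0.396, 1.65 and 0.283 FPKM, lower by 3.25 on the log2 scale (SE 0.81, edgeR, adjusted p = 0.0385), and this call was lost under the same settings and with library totals (adjusted p up to 0.283). Trisim1_007510 had 14 counts in all with 9,10-dibutoxyanthracene on day 1 and 127 in the control on day 3. In the lowest flasks of both genes 1 read counts for much of the value.

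The compounds added in dichloromethane were set side by side on day 1, at doses of 5 mg/L for 9,10-dibutoxyanthracene and 10 mg/L for 4-phenoxybenzoic acid. Their volumes of dichloromethane differed as well. Both groups had been used in choosing the members, each with a limit against the day 1 control, so the shares of all genes beside the counts are no yardstick for the members. With 9,10-dibutoxyanthracene 135 of 176 members were lower, by a median of 0.27, and 169 lay within 1, beside 96.9% of all genes. Its flasks were all below those of 4-phenoxybenzoic acid for 50 members and all above for 4, beside 8.87% and 10.1% of all genes. In edgeR 0 of 175 members were called, beside 0.0738% of all genes; 39 had an unadjusted p under 0.05, limma called 0 and DESeq2 called 3. Without 9,10-dibutoxyanthracene flask 1, 2 members were called. The members' median fold change was -0.44 (log2), against 0.02 for all genes tested, and -0.48 when scaled to library totals. Among the abundant members, Trisim1_000830 had 147 to 276 FPKM with 9,10-dibutoxyanthracene, against 279 to 365 FPKM with 4-phenoxybenzoic acid.

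**Figure D4:**
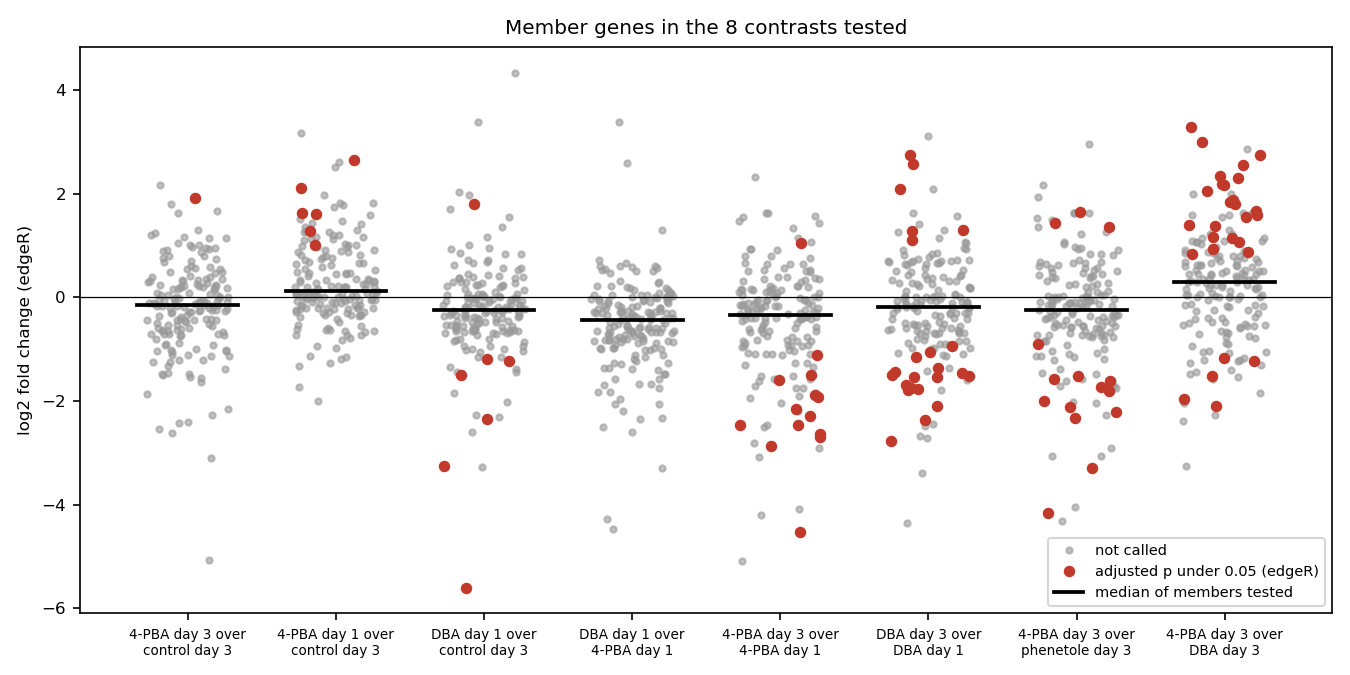
Fitted log2 fold changes of the members tested in the 8 contrasts, one point per member, red where edgeR's adjusted p was under 0.05, with a black bar at the median (4-PBA is 4-phenoxybenzoic acid and DBA is 9,10-dibutoxyanthracene). Member medians lie between -0.44 (9,10-dibutoxyanthracene against 4-phenoxybenzoic acid on day 1) and 0.31 (4-phenoxybenzoic acid against 9,10-dibutoxyanthracene on day 3).

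The days were then compared within each compound added in dichloromethane. With 4-phenoxybenzoic acid, 159 of 176 members lay within 1 between day 3 and day 1, beside 93% of all genes, and the median difference was -0.20. The day 3 flasks were all below the day 1 flasks for 53 members and all above for 7, beside 14.1% and 12.1% of all genes. In edgeR 13 members fell and 1 rose, 8% of members tested beside 3.03% of all genes (1.22% lower, 1.82% higher). The choice had bounded these day 1 flasks against the day 1 control, so nothing is read from the distance to all genes. The count of 14 was 1 without day 1 flask 1, 3 without day 1 flask 2, 6 without day 1 flask 3, 7 without day 3 flask 2, 2 without day 3 flask 3, and 28 with DESeq2.

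Trisim1_006462 was one of those that fell with 4-phenoxybenzoic acid, with the values given above (-1.93 ± 0.52, log2 with SE, edgeR, adjusted p = 0.0459). Its call was lost without any one flask of day 1 or day 3 flask 2 or 3, with an adjusted p of up to 0.177. The largest falls by the fit were those of Trisim1_000863 (1815 bp) and Trisim1_003508. Trisim1_000863 had 0.0655, 0.0676 and 0 FPKM on day 3, against 1.56, 1.19 and 0.600 FPKM on day 1 (-4.53 ± 0.91, edgeR, adjusted p = 0.0133). This call was lost with limma and without day 1 flask 1 or day 3 flask 3, with an adjusted p of up to 0.145. Trisim1_003508 had 2.01, 8.35 and 2.46 FPKM on day 3, against 30.4, 39.7 and 25.5 FPKM on day 1 (-2.88 ± 0.69, edgeR, adjusted p = 0.0284). That call was lost without day 1 flask 1 or 2 or day 3 flask 1 or 3, with an adjusted p of up to 0.15. The one that rose, Trisim1_008869 (1498 bp), had 29.6, 31.9 and 36.6 FPKM on day 3, against 15.5, 13.6 and 18.5 FPKM on day 1 (1.05 ± 0.27, edgeR, adjusted p = 0.0382). The call was lost with library totals and without any one flask other than day 3 flask 1, with an adjusted p of up to 0.185.

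With 9,10-dibutoxyanthracene, 165 of 176 members lay within 1 between day 3 and day 1, beside 82.9% of all genes, with a median difference of -0.05. The choice had bounded both days against the control, which draws them together, so nothing is read from the distance to all genes here or in the counts that follow. In edgeR 17 members fell and 6 rose, 13.1% of members tested beside 21.7% of all genes (11.7% lower, 10% higher). Scaled to library totals, which moved the median of all genes by -0.27, 20 fell and 1 rose; limma gave 5 and 7, and a fit of only these groups 19 and 13. The count of 23 was 13 without day 1 flask 2 or flask 3, 9 without day 3 flask 2 and 8 without day 3 flask 3.

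Among the members named for the size of their change, 2 were called under every alternative. Trisim1_006111 (4303 bp) had 0.262, 0.203 and 0.526 FPKM with 9,10-dibutoxyanthracene on day 3, against 2.02, 1.20 and 1.76 FPKM on day 1 (-2.37 ± 0.41, log2 with SE, edgeR, adjusted p = 0.00055, at most 0.0103 over 13 alternatives). Trisim1_007482 (1500 bp) rose, with 2.26, 1.71 and 1.46 FPKM on day 3, against 0.381, 0.149 and 0.251 FPKM on day 1 (2.75 ± 0.49, edgeR, adjusted p = 0.000822, at most 0.00779). Even so, its day 3 level stayed below the 7.32 to 14.5 FPKM of the day 1 control. Trisim1_002015 (354 bp) rose by 2.57 ± 0.83, with 1.28, 1.60 and 1.55 FPKM on day 3 against 0, 0.126 and 0.607 FPKM on day 1 (edgeR, adjusted p = 0.0321). Its call was lost without day 1 flask 1 or 2, any day 3 flask, or with library totals, with an adjusted p of up to 0.121. Trisim1_007831 (1635 bp) had 0.345, 0.346 and 0.294 FPKM against 0.511, 1.77 and 4.43 FPKM (-2.77 ± 0.89, edgeR, adjusted p = 0.0316). This call was lost with limma, without day 1 flask 2 or 3, or without any day 3 flask, with an adjusted p of up to 0.185.

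Within day 3, 4-phenoxybenzoic acid was set against the other added compounds. The choice had held both of those within 1 of the control on day 3, so nothing is read from the distance to all genes for either. Against phenetole the median member differed by -0.13 on the log2(mean FPKM + 1) scale, and edgeR called 12 members lower and 3 higher, 8.57% of members tested beside 3.76% of all genes (2.08% lower, 1.68% higher). The fitted median was -0.24 (log2), and 0 when scaled to library totals, which moved the median of all genes by 0.25. The count of 15 was 2 without 4-phenoxybenzoic acid flask 3, 1 without phenetole flask 2 or flask 3, 24 without phenetole flask 1, 26 with DESeq2 and 0 in a fit of only these groups.

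Trisim1_006480 (3517 bp) was among the higher ones, with 14.6, 19.9 and 8.77 FPKM with 4-phenoxybenzoic acid on day 3, against 6.31, 5.19 and 4.53 FPKM with phenetole (1.44 ± 0.33, edgeR, adjusted p = 0.0199). That call was lost without 4-phenoxybenzoic acid flask 2, phenetole flask 2 or 3, or in a fit of only these groups, with an adjusted p of up to 0.121. Trisim1_011706 was higher too, at 58.5, 41.3 and 31.3 FPKM against 17.3, 14.0 and 10.6 FPKM (1.64 ± 0.35, edgeR, adjusted p = 0.0151). The call was lost without phenetole flask 2 or 3 or in a fit of only these groups, with an adjusted p of up to 0.116. Trisim1_000863 was lower, at 0.0655, 0.0676 and 0 FPKM against 0.236, 0.801 and 1.55 FPKM (-4.15 ± 0.91, edgeR, adjusted p = 0.0174). Its call was lost with limma and without 4-phenoxybenzoic acid flask 3 or phenetole flask 2 or 3, with an adjusted p of up to 0.241. Trisim1_009530 (1887 bp) was lower as well, at 0.147, 0.238 and 0.0636 FPKM against 0.272, 2.17 and 2.12 FPKM (-3.30 ± 0.80, edgeR, adjusted p = 0.0250). This call was lost with limma, in a fit of only these groups, and without 4-phenoxybenzoic acid flask 1 or 3 or phenetole flask 2 or 3, with an adjusted p of up to 0.176.

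Against 9,10-dibutoxyanthracene on day 3, edgeR called 23 members higher with 4-phenoxybenzoic acid and 5 lower, 16% of members tested beside 19.8% of all genes (10.7% higher, 9.02% lower). The fitted median was 0.31 (log2), against 0.06 for all genes. Scaled to library totals, which moved the median of all genes by 0.46, 48 were higher and 2 lower; limma called 11 and 4, DESeq2 25 and 13, a fit of only these groups 23 and 15, and the replicate block 28 and 10. The count of 28 was 14 without 4-phenoxybenzoic acid flask 1, 11 without its flask 2, 12 without 9,10-dibutoxyanthracene flask 2 and 13 without its flask 3.

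Trisim1_009983 (1885 bp) had 1.66, 1.71 and 1.10 FPKM with 4-phenoxybenzoic acid on day 3, against 0.180, 0.0817 and 0.328 FPKM with 9,10-dibutoxyanthracene (3.00 ± 0.59, log2 with SE, edgeR, adjusted p = 0.00249, at most 0.0197 over 13 alternatives). Trisim1_003946 (1994 bp) was lower, with 0.437, 0.574 and 0.521 FPKM against 1.64, 2.89 and 2.27 FPKM (-2.09 ± 0.36, edgeR, adjusted p = 0.00112, at most 0.0105). The control flasks of day 3 held 0.472 to 1.40 FPKM of the gene that was higher and 0.780 to 1.41 FPKM of the one that was lower. Trisim1_002110 (702 bp) had 0.226, 0.291 and 2.79 FPKM against 0.0804, 0.220 and 0 FPKM (3.28 ± 1.11, edgeR, adjusted p = 0.0419). That call was lost with limma and without 4-phenoxybenzoic acid flask 3 or any 9,10-dibutoxyanthracene flask, with an adjusted p of up to 0.433. Trisim1_009930 (1317 bp) had 0.271, 0.155 and 0.243 FPKM against 0.772, 0.780 and 1.20 FPKM (-1.96 ± 0.64, edgeR, adjusted p = 0.0361). The call was lost with limma, with library totals and without any one of the 6 flasks, with an adjusted p of up to 0.135.

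Trisim1_011706 was called in 6 of the 8 contrasts tested, more than any other member, and Trisim1_006111 in 5. These contrasts share groups, so the calls are not separate findings. For 4-phenoxybenzoic acid on day 1 against the control on day 3, Trisim1_011706 was higher by 1.28 ± 0.35 (edgeR, adjusted p = 0.0346). That call was lost in 7 of 13 alternatives, with an adjusted p of up to 0.150. Trisim1_011706 had 16.9, 8.60 and 17.4 FPKM with 9,10-dibutoxyanthracene on day 3, against 51.1, 40.6 and 30.8 FPKM on day 1 (-1.54 ± 0.35, log2 with SE, edgeR, adjusted p = 0.00422, at most 0.0302). On day 1 with 4-phenoxybenzoic acid it had 19.3, 30.5 and 35.2 FPKM, close to the 31.3 to 58.5 FPKM of day 3. By falling mean, its order over the groups began with the control on day 1, at 279 ± 99.9 FPKM (SD, n = 3 each). Next came 4-phenoxybenzoic acid on day 3 (43.7 ± 13.7) and 9,10-dibutoxyanthracene on day 1 (40.8 ± 10.1). Lower were 4-phenoxybenzoic acid on day 1 (28.3 ± 8.16), 9,10-dibutoxyanthracene on day 3 (14.3 ± 4.94) and phenetole on day 3 (14.0 ± 3.36). Last came the control on day 3 (11.6 ± 4.36) and phenetole on day 1 (1.39 ± 0.295). Neighbours in that order from 43.7 to 28.3 FPKM, and from 14.3 to 11.6 FPKM, had overlapping flasks. Over the whole list, 58 members were called in at least 1 of the 8 contrasts, 6 in 3 or more, and 117 in none.

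Members lay next to one another in the model numbering: 42 of 176 (23.9%) had a directly adjacent member, as did 2.74% of all models. They formed 17 pairs, 1 run of 3 and 1 run of 5; positions on the genome were not analysed here. Of 300 adjacent models outside the list, 26 (8.67%) were at least 1.5 lower in the control on day 3 than on day 1. The share of all models was 3.51%, which includes the members, all of which met that condition by choice.

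The run of 5, Trisim1_005916 to Trisim1_005920, had moderate levels. In the control on day 1 Trisim1_005916 (1791 bp) had 19.8, 15.9 and 18.8 FPKM, Trisim1_005917 (1962 bp) 11.9, 9.24 and 9.07, Trisim1_005918 (2119 bp) 6.41, 5.87 and 5.49, Trisim1_005919 (1911 bp) 17.5, 23.0 and 15.9, and Trisim1_005920 (1122 bp) 11.8, 18.5 and 9.41. With phenetole on day 1 these genes held 8.29 to 12.9, 3.15 to 8.25, 4.24 to 8.01, 14.3 to 15.1 and 4.95 to 13.9 FPKM. Next to the run, Trisim1_005915 averaged 2.52 FPKM with 4-phenoxybenzoic acid on day 1 and 1.56 FPKM in the control on day 3, against 6.92 FPKM in the control on day 1, and was not low enough with 4-phenoxybenzoic acid to be a member. On the other side, Trisim1_005921 was at 0.0749 FPKM or less in each group mean.

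Day 3 values in the run differed from gene to gene. Trisim1_005916 had 2.59, 2.97 and 0.893 FPKM with 4-phenoxybenzoic acid, 0.315, 0.574 and 0.613 with 9,10-dibutoxyanthracene, 0.694, 2.04 and 0.964 with phenetole, and 1.24, 3.04 and 0.802 in the control. It was higher with 4-phenoxybenzoic acid than with 9,10-dibutoxyanthracene on day 3 (2.16 ± 0.51, log2 with SE, edgeR, adjusted p = 0.00759, at most 0.0450) and fell with 9,10-dibutoxyanthracene between the days (-2.09 ± 0.51, edgeR, adjusted p = 0.0069, at most 0.0354). Trisim1_005917 did the same, with 2.05 ± 0.50 (edgeR, adjusted p = 0.00854; 0.0509 without 9,10-dibutoxyanthracene flask 2 of day 3) and -1.76 ± 0.50 (edgeR, adjusted p = 0.0155). Its call was lost with limma and without 9,10-dibutoxyanthracene flask 3 of day 1 or flask 2 of day 3, with an adjusted p of up to 0.081. Neither contrast called the other 3 genes of the run, and differences between genes were not tested. Trisim1_005919 had 2.41, 1.22 and 1.95 FPKM with 4-phenoxybenzoic acid on day 3, against 3.55, 4.25 and 4.39 FPKM on day 1 (-1.12 ± 0.28, edgeR, adjusted p = 0.0329). That fall was lost with library totals, in a fit of only these groups and without any one flask other than day 3 flask 1, with an adjusted p of up to 0.124. In the run of 3, Trisim1_009554 (1941 bp), Trisim1_009555 and Trisim1_009556 (1661 bp) had 7.90 to 15.3, 44.8 to 79.1 and 6.17 to 12.0 FPKM in the control on day 1.

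**Figure D5:**
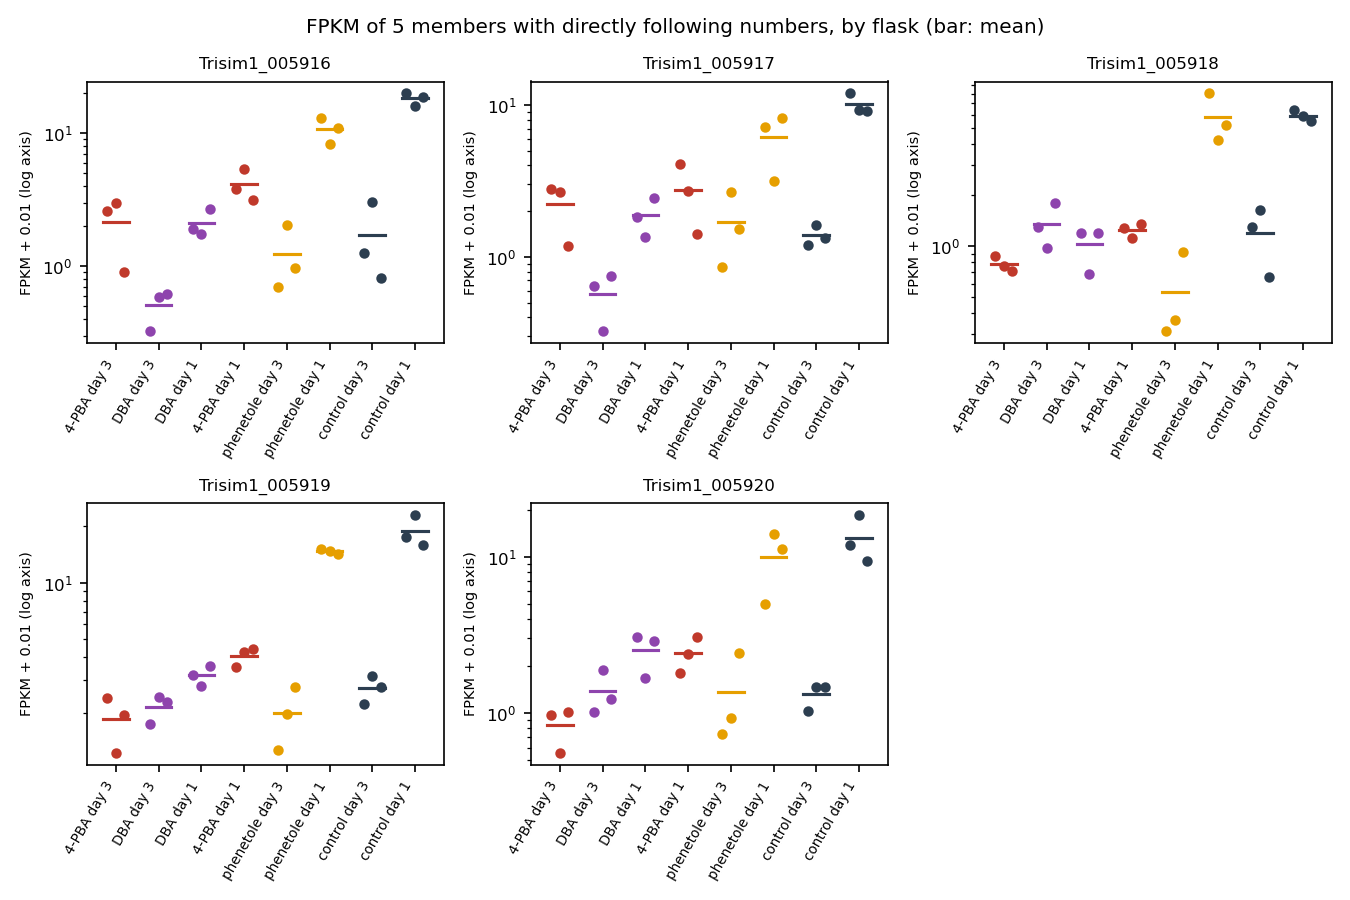
FPKM + 0.01 on a log axis in each flask (points, with a bar at the mean) of the adjacent models Trisim1_005916 to Trisim1_005920, by culture type and day (4-PBA is 4-phenoxybenzoic acid and DBA is 9,10-dibutoxyanthracene). All 5 have their high flasks in the control and phenetole on day 1, and the 9,10-dibutoxyanthracene flasks of day 3 are the lowest for Trisim1_005916, at 0.315 to 0.613 FPKM.

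At the edge of the choice, Trisim1_010360 was just inside, with differences from the day 1 control of -1.75 with 4-phenoxybenzoic acid, -1.77 with 9,10-dibutoxyanthracene and -1.51 for the control on day 3. Trisim1_009526 was just inside for 4-phenoxybenzoic acid, at -1.51. Just outside stood Trisim1_008764, whose control difference was -1.498, and Trisim1_010538, whose 4-phenoxybenzoic acid difference was -1.496. Within 0.1 of the limits lay 27 members on the inside and 27 models on the outside, so the list has no natural edge. Members were 80 to 6050 bp long with a median of 1613 bp, against 1467 bp for all models. Trisim1_002471, of 80 bp, did not pass the filter on low counts and is the member absent from the tests.

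Outside the list, the genes most like the members' mean profile over the 24 libraries were Trisim1_008399 (Pearson r = 0.945) and Trisim1_003512 (r = 0.940). These values are a description over libraries that share groups. Both were lower in the control on day 3 than on day 1, by 0.94 and 1.14 on the log2(mean FPKM + 1) scale, and were therefore too shallow for the limit of 1.5.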

How the data were processed

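Poly-A RNA of mycelium was sequenced in 24 libraries, 3 flasks for each of 4 culture types on 2 days. The authors deposited a table of raw counts and a table of FPKM; counting was done with featureCounts 1.5.0-p3 per the submitters' processing notes. For the aligner, build and annotation the sources used here give nothing. FPKM as deposited were compared with the counts: dividing out a median-of-ratios library size left 12728 gene lengths, all whole within 0.01 bp. Groups were taken from the labels. Members were found on the deposited FPKM with a pseudocount of 1, in Python 3.11.15 with pandas 2.3.3. The members, the lists and the comparisons were chosen with earlier results of these data known.

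Counts were fitted in R 4.3.3 with edgeR 4.0.16: filterByExpr with a minimum count of 10 kept 10842 genes, 175 of them members, TMM factors scaled the libraries, and all 24 libraries entered one quasi-likelihood model with 8 group means. The choice of members set no direct limit on the 8 contrasts tested, but it had used a group on at least 1 side of each. Phenetole on day 3 against day 1, and the other compounds against phenetole on day 1, had no direct limit either but were not tested. A gene was called where its two-sided p was under 0.05 after Benjamini-Hochberg adjustment over all genes of the contrast. Fold changes named for counts are log2 values of that fit, and differences of log2(mean FPKM + 1) understate the change of low genes. It is not stated if each flask was its own culture, sampled a single time; p-values then measure only the spread between these samples, which may be technical. Correlations of deviations between same-numbered flasks reached 0.11 for all 3 flask numbers in 1 contrast only. That was 4-phenoxybenzoic acid on day 3 against day 1 (0.20, 0.11 and 0.31). The replicate block there gave 16 members called in place of 14. Single flask numbers deviated together elsewhere too. Against the control on day 3, correlations were 0.27, 0.02 and 0.23 for 4-phenoxybenzoic acid on day 1. For the other compound added in dichloromethane they were 0.46, -0.03 and 0.55 on day 1. Scripts were tested on simulated data.

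Genes were named by a rule: the 6 members with the highest level and the 6 with the lowest day 3 against day 1 in the control, the 4 lowest and 4 highest with phenetole on day 1, the 2 largest rises and falls among called members without overlap in each contrast, the 2 longest runs of model numbers, the 2 genes on each side of the limits, and the 2 non-members closest to the mean profile. Alternatives were DESeq2 1.42.0, DESeq2 size factors in edgeR, limma 3.58.1 on log2(FPKM + 1), no filter, only the groups compared, flask number as a block, each flask left out, and, chosen after seeing the data, library totals without a composition factor.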

Additional observations from a re-analysis of the deposited data

How the results depend on the processing

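None of the 44 calls of named genes reversed under the alternatives run; 8 held under every alternative, and 35 were lost without at least 1 library. Counts of members called moved by more than 1.5 times as follows, with the cause not tested. For 4-phenoxybenzoic acid against the control on day 3 (1 called), DESeq2 gave 8, the replicate block 3 and a fit of only these groups 0. For 9,10-dibutoxyanthracene against 4-phenoxybenzoic acid on day 1 (0), DESeq2 gave 3. For 4-phenoxybenzoic acid on day 1 against the control on day 3 (6), DESeq2 gave 14. For 9,10-dibutoxyanthracene on day 1 against the control on day 3 (7), library totals gave 3, limma 4 and a fit of only these groups 0. For day 3 against day 1, DESeq2 gave 28 with 4-phenoxybenzoic acid (14) and limma 12 with 9,10-dibutoxyanthracene (23). For 4-phenoxybenzoic acid on day 3, against phenetole (15) DESeq2 gave 26 and a fit of only these groups 0, and against 9,10-dibutoxyanthracene (28) library totals gave 50 and limma 15. DESeq2 size factors in edgeR and no filter moved none of the 8 counts by that much.

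Leaving out 1 flask gave 0 to 2 members for 4-phenoxybenzoic acid against the control on day 3, 0 to 2 for 9,10-dibutoxyanthracene against 4-phenoxybenzoic acid on day 1, 0 to 9 for 4-phenoxybenzoic acid on day 1 against the control on day 3, and 0 to 6 for 9,10-dibutoxyanthracene on day 1 against it. It gave 1 to 11 with 4-phenoxybenzoic acid and 8 to 18 with 9,10-dibutoxyanthracene for day 3 against day 1, and 1 to 24 and 11 to 32 for 4-phenoxybenzoic acid on day 3 against phenetole and against 9,10-dibutoxyanthracene. Flask number entered no main fit, and the labels do not say what flasks of the same number share. The replicate block gave 0, 9, 8, 24, 19 and 38 members in the contrasts with 0, 6, 7, 23, 15 and 28. Of the 6 samples of a contrast, 0 to 5 correlated best with their own number. The membership conditions were met by 101 genes with a pseudocount of 5 FPKM (85 of them members), 233 with 0.1 FPKM (126), 154 to 192 with 1 flask number left out, and 175 with TMM-scaled counts per kilobase (174). Depth limits members near 0, where 1 read carries much of a value.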

Other observations

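Among the 812 loci that lie outside the numbered models, 4 met the same conditions as the members. One of 1027 bp averaged 0.547 FPKM with 9,10-dibutoxyanthracene, 0.918 FPKM with 4-phenoxybenzoic acid and 23.1 FPKM with phenetole on day 1, against 16.3 FPKM in the control of that day. A longer locus of 4370 bp averaged 1.41, 1.98 and 5.96 FPKM in the same order, against 15.9 FPKM in the control. On day 3 these loci averaged 0.211 and 2.16 FPKM with 4-phenoxybenzoic acid, against 1.06 and 3.52 FPKM in the control.

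Trisim1_004707, a model of 1148 bp picked out after its values were seen, was called in 4 of the 8 contrasts. It averaged 1.73 FPKM with 4-phenoxybenzoic acid on day 3, against 11.0 FPKM on day 1 (edgeR, log2 fold change -2.65 ± 0.44 with SE, adjusted p = 0.00522) and 8.08 FPKM with phenetole on day 3 (-2.21 ± 0.44, edgeR, adjusted p = 0.0114). The control averaged 3.61 FPKM on day 3 and 66.7 FPKM on day 1. The calls of this gene were not followed through the alternatives. A fit of only the groups compared called no member against phenetole on day 3, so that call was lost there.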
